A study of Mus musculus with 27 samples.

Results

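Integrins are cell surface adhesion receptors made of 1 alpha and 1 beta chain, and Icam1 is the immunoglobulin-type ligand on neighbouring cells that leukocyte integrins bind. The genes described here were 9 integrin subunit genes and Icam1, chosen by symbol from the 45070 genes of the deposited table: Itgam, Itgal, Itgax, Itgb2, Icam1, Itga4, Itga5, Itga6, Itgav and Itgb1. All 10 were in the table and all 10 passed the filter on low values, as did 13901 genes in all. Chromatin-associated RNA, much of it nascent transcripts, had been measured in bone marrow-derived macrophages (BMDMs), primary macrophages grown from the marrow of male C57/BL6 mice aged 6 to 8 weeks with no engineered allele. The methods describe 1 h with DMSO, the solvent of the kinase inhibitors tested elsewhere in the study, before the stimulus. They do not say separately whether the untreated cells had it. The 9 groups of 3 replicates were untreated cells, cells given lipopolysaccharide (LPS, the Gram-negative endotoxin recognised by TLR4) at 10 ng/ml, and cells given the cytokine interleukin-4 (IL-4) at 10 ng/ml, the stimulated cells being taken after 0.5, 1, 2 or 4 h. The labels do not say whether replicates came from separate mice or cultures, so p-values measure the spread between these samples, which may be technical.

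Within the family the beta chain sets the main partnerships. Itgb2 (CD18) pairs with Itgam (CD11b) to give Mac-1, a receptor for complement fragment iC3b, fibrinogen and Icam1, with Itgal (CD11a) to give LFA-1, which binds Icam1, and with Itgax (CD11c) to give p150,95. Itgb1 pairs with Itga4 to give VLA-4, a receptor for Vcam1 and fibronectin, with Itga5 to give the classical fibronectin receptor, and with Itga6 to give a laminin receptor. Itgav has several beta partners, among them Itgb1, Itgb3, Itgb5 and Itgb8, and its dimers bind ligands with an RGD motif such as vitronectin, osteopontin and latent TGF-beta. In macrophages these receptors serve adhesion, migration, uptake of opsonised particles and contact with matrix.

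Under LPS the RNA of Icam1, Itga5, Itgav and Itgal rose by more than 8-fold at its peak, for Itgal not under every alternative run. Itga4 and Itgb1 rose less, and Itga6 fell throughout. Itgam and Itgb2, the chains of Mac-1, moved up at some times and down at others. With IL-4, Itga4, Itga6 and Itgal fell, Itgav and Itgb1 rose early, and Itgam rose at 0.5 h and was below its untreated level by 2 h, Itgax rose from a low level, and Itga5 passed no test against untreated.

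Upstream sequence was available for 7 of the 10 genes (RefSeq promoter windows on GRCm38.p6). The 250 bases before the transcript start are printed for the 3 genes with the largest rises under LPS, and for Itgam and Itgax, which lie 11.1 kb apart in the same orientation and went opposite ways late after IL-4. All run 5′ to 3′ on the strand of the gene, and capitals mark matches on either strand to the motifs named after them.
Icam1, chr9:21015690-21015939, plus strand: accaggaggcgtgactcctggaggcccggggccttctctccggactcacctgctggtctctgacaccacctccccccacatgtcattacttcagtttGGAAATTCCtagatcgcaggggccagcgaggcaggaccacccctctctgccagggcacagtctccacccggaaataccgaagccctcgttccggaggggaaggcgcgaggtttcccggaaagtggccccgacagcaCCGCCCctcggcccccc
Itga5, chr15:103366792-103367041, minus strand: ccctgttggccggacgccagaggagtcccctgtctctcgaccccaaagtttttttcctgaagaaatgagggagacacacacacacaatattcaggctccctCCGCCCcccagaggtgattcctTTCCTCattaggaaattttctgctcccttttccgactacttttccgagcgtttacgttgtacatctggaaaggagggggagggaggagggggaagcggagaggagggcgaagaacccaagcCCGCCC
Itgav, chr2:83724147-83724396, plus strand: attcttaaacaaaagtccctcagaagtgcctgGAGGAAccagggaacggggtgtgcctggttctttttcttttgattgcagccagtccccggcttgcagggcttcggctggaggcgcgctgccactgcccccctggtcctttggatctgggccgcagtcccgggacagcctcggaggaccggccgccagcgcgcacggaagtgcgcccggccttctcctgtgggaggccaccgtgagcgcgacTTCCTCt
Itgam, chr7:128062390-128062639, plus strand: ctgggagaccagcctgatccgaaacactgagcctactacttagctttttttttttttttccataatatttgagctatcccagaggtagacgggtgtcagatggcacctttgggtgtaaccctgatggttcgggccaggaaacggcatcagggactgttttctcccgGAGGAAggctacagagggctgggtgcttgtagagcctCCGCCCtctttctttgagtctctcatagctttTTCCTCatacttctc
Itgax, chr7:128129300-128129549, plus strand: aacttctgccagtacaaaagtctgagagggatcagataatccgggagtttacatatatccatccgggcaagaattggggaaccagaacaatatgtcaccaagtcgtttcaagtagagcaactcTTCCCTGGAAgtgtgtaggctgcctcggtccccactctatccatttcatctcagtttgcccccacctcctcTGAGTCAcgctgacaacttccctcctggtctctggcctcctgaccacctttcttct
The letters searched were GGGANNNNCC and GGAANTTCC for NF-κB, GAGGAA for PU.1, TTCNNNNGAA for STAT6, TGANTCA for AP-1 and GGGCGG for the GC box. No 2 matches in these 5 windows overlapped. Icam1 alone of the 7 genes held GGAANTTCC, 153 to 145 bases before its start, and 0.813% of all 32851 windows of this length hold it. GGGANNNNCC was in none of the 7 windows and is in 17.6% of all. GAGGAA, found in 23.3% of all windows, occurred in Itgam at 84 to 79 and at 15 to 10 bases before the start, in Itgav at 218 to 213 and at 7 to 2, in Itga5 at 127 to 122, and in Itgb1. The Itgax window held TTCNNNNGAA at 127 to 118 bases before the start (5.85% of all windows) and TGANTCA at 56 to 50 (6.75%). GGGCGG was in 5 of the 7 windows, Icam1, Itga5, Itgam, Itga4 and Itgb1, and in 32.7% of all. A match says that the letters are present and not that a factor binds there.

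The loci (GRCm38, counted from 1, as the deposited table gives them) are spread over 6 chromosomes. Itgal at chr7:127296260-127335137, Itgam at chr7:128062640-128118491 and Itgax at chr7:128129550-128150657 form a cluster of Itgb2 partners, and Itgb2 itself is at chr10:77530370-77565708. Itga6 (chr2:71786939-71858427), Itga4 (chr2:79255426-79333114) and Itgav (chr2:83724397-83806917) share chromosome 2. Itga5 is at chr15:103344286-103366791 on the minus strand, Itgb1 at chr8:128685654-128733579 and Icam1 at chr9:21015940-21028814. The genes span 12.9 kb (Icam1) to 82.5 kb (Itgav), of which annotated exons take 8.30% to 20.5%. Of the 10, Itga4 shares 624 bases with Cerkl on the other strand and Itga5 contains Mir6963 on its own strand, and whether the counting used strand is not given in the sources used here, so reads there could be shared.

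Values are normalised read counts, which the authors scaled on genes they found invariant. Their sum was 2469768 to 2790981 in untreated and IL-4 libraries and 3571492 to 4058199 in LPS libraries, and sequencing depth is not known from such values. The median gene changed under LPS by a log2 value of -0.24 after 0.5 h, then -0.30, -0.29 and -0.26 after 1, 2 and 4 h, so a member at 0 lay above the median gene. Replicate 1 stood apart in every group, with an SD of log2 ratios over 620 high genes of 0.370 to 0.496 against the other replicates, compared with 0.138 to 0.287 between replicates 2 and 3. All 6 macrophage markers were present in every library and summed to 8838 to 16527, but they did not move together. Adgre1, the largest of them, read 4051 to 4508 untreated and 7705 to 12058 at 1 h of LPS. Csf1r read 1814 to 2052 untreated, 3054 to 3505 at 0.5 h of LPS and 427 to 501 at 2 h. Lyz2 read 842 to 1054 untreated, 382 to 430 at 2 h of LPS and 221 to 414 at 2 h of IL-4. Fcgr1 went from 45 to 87 untreated to 915 to 1038 at 4 h of LPS. The 5 stromal and endothelial markers summed to 88 to 219 in replicate 1 libraries and 29 to 74 in the others, none of the 5 being at 0 everywhere. Most of the sum was Col1a1 and Col1a2, at 95 and 105 in replicate 1 of LPS 2 h, where Pdgfra and Dcn read 6 and 11. Cdh5, the endothelial marker, read at most 5 in any library. Itga5, Itgav, Itgb1 and Itga6 are also expressed in stromal and endothelial cells, and the part of these cells in the values was not tested. T cell, B cell, neutrophil, mast cell and megakaryocyte lists summed to at most 34, and Cd3e, Cd3g, Ly6g, Fcer1a and Mcpt4 were at 0 in all 27 libraries. In bulk samples, fewer cells of a type and less RNA per cell cannot be told apart.

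**Figure D1:**
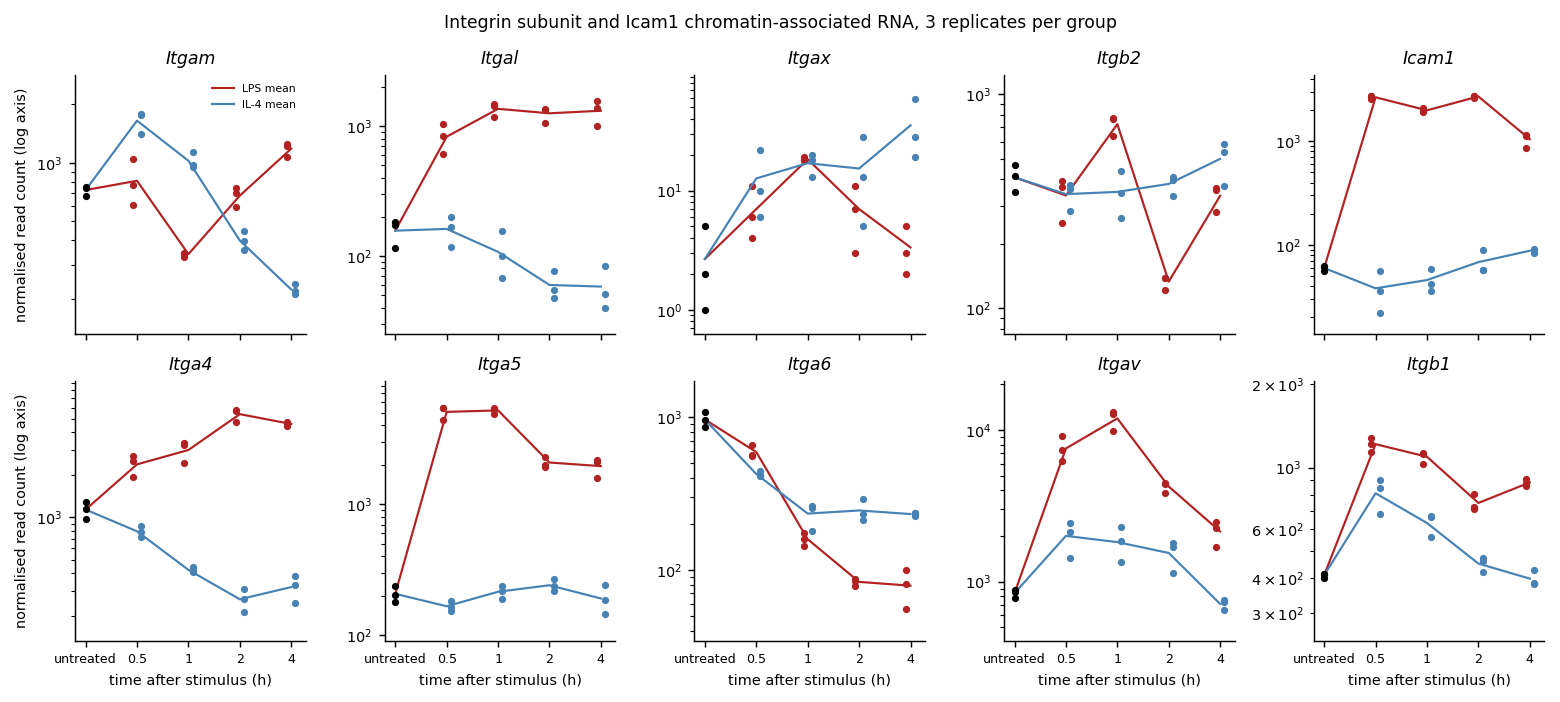
Normalised read counts (log axis) of the 10 genes in untreated cells (black) and after LPS (red) or IL-4 (blue) at the 4 times. Points are the 3 replicates of a group and lines join group means; Icam1 sits between 870 and 2762 in every LPS library and at 91 or below in every other.

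Per kb of gene, untreated macrophages carried most RNA from Itga4 (14.6 ± 1.93 normalised read counts per kb of span, SD, n = 3), Itga6 (13.5 ± 1.55), Itgam (13.0 ± 0.718), Itgb2 (11.6 ± 1.66) and Itgav (10.2 ± 0.676), neighbours in this order that lay within about an SD of each other. Itga5 (9.21 ± 1.32) and Itgb1 (8.55 ± 0.158) came next, then Icam1 (4.63 ± 0.250) and Itgal (4.02 ± 0.950), and Itgax was last at 0.126 ± 0.0986. Dividing by exonic length instead put Itga6, Itgam and Itgb2 at the head of the order and Itgax again at its end. After 1 h of LPS the order opened with Itga5 (218 to 242 per kb of span), Icam1 (155 ± 6.20) and Itgav (144 ± 21.9), the last of these within an SD of the one before. Per kb of exon Itgav led instead, with 1690 ± 257 ahead of Itga5 (1164 ± 60.3) and Icam1 (774 ± 31.0). The order ended by either length with Itgam (6.08 ± 0.149 per kb of span), Itga6 (2.22 ± 0.217) and Itgax (0.869 ± 0.0274). After 4 h of IL-4 it opened by either length with Itgb2 (14.1 ± 3.18 per kb of span) and closed by span with Itga6 (3.25 ± 0.0979), Itgax (1.67 ± 0.994) and Itgal (1.49 ± 0.575), and by exonic length with Itga4, Itgal and Itgax.

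In the LPS course all 10 genes passed the moderated F test for any change (limma, Benjamini-Hochberg adjusted over all tested genes), in which 87.6% of all genes were called. Against untreated, 0.5 h of LPS had 6 members called higher and 1 lower (19.6% and 34.4% of all genes). The 1 h group had 8 higher and 2 lower (24.8% and 39%), the 2 h group 7 higher and 2 lower (26.9% and 39%), and the 4 h group 7 higher and 1 lower (25.9% and 37.6%). Taken over the 10 members, the median change was 1.37, 1.98, 1.70 and 1.22 on the log2 scale. With the replicate number kept as a block, 9 members were called at 0.5 h, Itgax and Itgb2 being added, and the counts at the other times were as given. Itgax, which passed the filter only through stimulated libraries, is among the 10 of the F test and the rises at 1 and 2 h. With every library set to the same total, the calls became 6 higher and 3 lower, 7 and 2, 5 and 3, and 6 and 2, while the median gene moved to between -0.73 and -0.91.

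Icam1, the ligand of LFA-1 and Mac-1, had the largest rise of the 10. It read 56, 62 and 61 normalised read counts in the untreated replicates, in the order 1, 2 and 3. LPS brought it to 2716, 2722 and 2550 at 0.5 h, then 2080, 1923 and 1977 by 1 h, 2732, 2762 and 2646 after 2 h and lastly 1162, 1115 and 870 after 4 h. Every LPS library lay far above every untreated one, and the 0.5 h and 2 h groups overlapped each other. The log2 fold change was 5.46 ± 0.11 (SE) at 0.5 h (limma adjusted p = 2.34e-14), 5.04 at 1 h, 5.48 at 2 h and 4.10 at 4 h. Between successive times it fell by 0.42 from 0.5 to 1 h (adjusted p = 0.00483), rose by 0.45 from 1 to 2 h (adjusted p = 0.00340) and fell by 1.38 from 2 to 4 h (adjusted p = 3.64e-07). All 3 steps were thus called, with the 1 h libraries below those of the times on either side. The first of these steps and the next lost their calls without replicate 2 (adjusted p = 0.118 and 0.110).

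Itga5, the alpha chain of the fibronectin receptor, followed Icam1 in size. Untreated replicates read 180, 203 and 239, and LPS gave 5391, 5428 and 4378 at 0.5 h, then 4911, 5256 and 5442 by 1 h, 2010, 2311 and 1925 after 2 h and lastly 2190, 2087 and 1586 after 4 h. No LPS library overlapped the untreated group. On the log2 scale the change was 4.61 ± 0.14 at 0.5 h and 4.65 at 1 h (adjusted p = 1.02e-12 and 7.60e-13), and 3.33 and 3.23 at 2 and 4 h. The step from 1 to 2 h was a fall of 1.32 (adjusted p = 1.70e-06), while the steps before and after it passed no test (0.04 and -0.10, adjusted p = 0.821 and 0.679).

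Itgav rose later and came back further. It read 855, 885 and 777 untreated, 6232, 9069 and 7372 at 0.5 h of LPS, then 9841, 12783 and 13139 by 1 h, 3836, 4465 and 4410 after 2 h and lastly 2490, 2253 and 1684 after 4 h. All 12 LPS libraries were above the untreated ones, and the 1 h libraries were above those of every other time. The log2 fold change was 3.15 ± 0.16 at 0.5 h, 3.82 at 1 h (adjusted p = 3.78e-11), 2.33 at 2 h and 1.33 at 4 h (adjusted p = 3.72e-06). Each step was called: a rise of 0.66 (adjusted p = 0.00358), then falls of 1.48 (adjusted p = 2.43e-06) and 1.00 (adjusted p = 0.000431). The rise was not called without replicate 3 (0.58, adjusted p = 0.0598).

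Itgal, the alpha chain of LFA-1, was held high. Its untreated values were 114, 182 and 173, and LPS gave 610, 1034 and 839 at 0.5 h, then 1166, 1432 and 1474 by 1 h, 1064, 1363 and 1335 after 2 h and lastly 1559, 1379 and 1000 after 4 h. The LPS libraries of 1, 2 and 4 h overlapped one another and none reached down to the untreated range. This was a log2 fold change of 2.39 ± 0.22 at 0.5 h (adjusted p = 2.98e-07) and 3.13, 3.02 and 3.07 after that, with 1 called step, from 0.5 to 1 h (0.74, adjusted p = 0.0106). That step was not called without replicate 3 (adjusted p = 0.0898) or with replicates 2 and 3 averaged (adjusted p = 0.0544). The 1 h log2 fold change of Itgal ranged from 2.55 to 3.39 over the alternatives run. Itga4, the VLA-4 alpha chain, climbed more slowly, from 974, 1152 and 1272 untreated to 1926, 2699 and 2489 at 0.5 h, then 2409, 3252 and 3338 by 1 h, 4721, 5662 and 5786 after 2 h and lastly 4588, 4753 and 4425 after 4 h. Its log2 fold change was 1.06 ± 0.15, 1.40, 2.25 and 2.03 (adjusted p = 3.64e-05 at 0.5 h and 4.20e-09 at 2 h). The step from 1 to 2 h was called (0.85, adjusted p = 0.000302) and that from 0.5 to 1 h was not (0.34, adjusted p = 0.0812), though it passed with the block (adjusted p = 0.00701), without replicate 1 (adjusted p = 0.00255) and with median-of-ratios scaling (adjusted p = 0.0405).

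Itgb1, the shared partner of Itga4, Itga5 and Itga6, moved within a narrower range than they did. From 413, 415 and 401 untreated it reached 1143, 1220 and 1282 at 0.5 h of LPS, then 1128, 1033 and 1123 by 1 h, 803, 723 and 712 after 2 h and lastly 879, 913 and 861 after 4 h. Every LPS library was above the untreated ones, and the 2 h libraries were the lowest of the course. The log2 fold change was 1.56 ± 0.09 at 0.5 h (adjusted p = 1.87e-09), 1.41, 0.86 (adjusted p = 6.51e-07) and 1.11, and the fall of 0.55 from 1 to 2 h was called (adjusted p = 0.000131). The rise from 2 to 4 h was 0.25 (adjusted p = 0.0643, and 0.0402 with the block). With equal totals, the 2 h difference from untreated was 0.20 and was no longer called (adjusted p = 0.0619).

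Itga6, the laminin-binding alpha chain, was the one member that fell at every time of LPS. It read 1080, 963 and 859 untreated, 556, 562 and 657 at 0.5 h, then 159, 174 and 143 by 1 h, 78, 87 and 85 after 2 h and lastly 55, 100 and 81 after 4 h. No LPS library overlapped the untreated group, and the 2 h and 4 h libraries overlapped each other. As log2 fold changes these were -0.71 ± 0.18 at 0.5 h (adjusted p = 0.00339), -2.60 at 1 h, -3.52 at 2 h and -3.64 at 4 h (adjusted p = 7.29e-11), and relative to the median gene -0.46, -2.29, -3.23 and -3.38. The falls from 0.5 to 1 h (1.89, adjusted p = 5.25e-07) and from 1 to 2 h (0.92, adjusted p = 0.000544) were called, and the step from 2 to 4 h was not (-0.12, adjusted p = 0.690).

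Itgam and Itgb2, the chains of Mac-1, crossed their untreated levels in opposite order. Itgam read 679, 741 and 754 untreated, and under LPS 610, 772 and 1044 at 0.5 h, then 342, 346 and 330 by 1 h, 740, 700 and 595 after 2 h and lastly 1228, 1253 and 1067 after 4 h. The 0.5 h and 2 h groups overlapped the untreated range, the 1 h libraries were all below it and the 4 h libraries all above it. Its log2 fold change was 0.12 ± 0.16 (adjusted p = 0.523), -1.09 (adjusted p = 1.98e-05), -0.10 (adjusted p = 0.590) and 0.70 (adjusted p = 0.00101), and all 3 steps were called (-1.22, 0.99 and 0.80, adjusted p = 1.19e-05, 8.31e-05 and 0.00150), the last of them not without replicate 2 (0.79, adjusted p = 0.0817). Itgb2 read 349, 413 and 466 untreated, and 250, 392 and 367, then 637, 774 and 765, then 139, 139 and 121, then 283, 366 and 357 at the 4 LPS times. Its 1 h libraries were all above the untreated ones and its 2 h libraries all below them, while those of 0.5 h and 4 h overlapped them. The log2 fold change was -0.30 ± 0.17 (adjusted p = 0.154, and 0.0480 with the block), 0.83 (adjusted p = 0.000595), -1.61 (adjusted p = 6.82e-07) and -0.29 (adjusted p = 0.156), with called steps of 1.13, -2.44 and 1.32 (adjusted p = 6.08e-05, 1.76e-08 and 4.71e-05). At 1 h the beta chain was thus up and its Mac-1 alpha chain down, and at 4 h the alpha chain was up.

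Setting every library to the same total lowers all genes of an LPS group by nearly the same log2 amount, so it bears on calls of small size, among them those of Itgb1 and Itgax at 2 h. With equal totals the rise of Itgb2 at 1 h was 0.25 (adjusted p = 0.220) and that of Itgam at 4 h 0.09 (adjusted p = 0.601), Itgam fell at 0.5 h by 0.39 and at 2 h by 0.76 (adjusted p = 0.0444 and 0.000502), and Itgb2 fell at 0.5 h by 0.81 and at 4 h by 0.89 (adjusted p = 0.000857 and 0.000305). The fall of Itgam at 1 h and of Itgb2 at 2 h passed the test under every alternative run. Without replicate 1, Itgb2 was also called at 4 h (-0.28, adjusted p = 0.0286).

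Itgax, the alpha chain of p150,95 and a gene used to mark dendritic cells, was close to the lower limit of the table. It read 5, 2 and 1 untreated, and under LPS 11, 6 and 4, then 18, 18 and 19, then 11, 3 and 7, then 5, 2 and 3. It passed the filter only through its stimulated libraries, since no untreated library reached 10. The calls of Itgax in every comparison are therefore given as a description. Only the 1 h group stood clear of untreated, with a log2 fold change of 2.55 ± 0.48 (adjusted p = 0.000295). At 0.5 h the value was 1.18 (adjusted p = 0.0509, and 0.0134 with the block), at 2 h 1.14 (adjusted p = 0.0497) and at 4 h 0.33 (adjusted p = 0.568), and the steps up to 1 h and down to 2 h were called (1.37 and -1.41, adjusted p = 0.0284 and 0.0273). The 2 h call was lost with a pseudocount of 8 (adjusted p = 0.0631), with no filter (adjusted p = 0.114) and with equal totals (0.63, adjusted p = 0.243). Both steps lost theirs with no filter (adjusted p = 0.0793 and 0.0780), without replicate 2 (adjusted p = 0.127 and 0.282), without replicate 3 (adjusted p = 0.242 and 0.126) and with replicates 2 and 3 averaged (adjusted p = 0.144 and 0.164). The 2 h call was lost as well without untreated replicate 2 (adjusted p = 0.113) or untreated replicate 3 (adjusted p = 0.210), and the F test lost its call without replicate 3 (adjusted p = 0.0531). The 5 dendritic cell markers summed to 9 to 15 untreated, 22 to 102 under LPS and 12 to 33 under IL-4, with Xcr1 at 0 throughout. At 1 h of LPS most of the sum was Zbtb46, at 90, 49 and 43 against 5, 4 and 1 untreated, while Clec9a read 1, 3 and 8 against 2, 5 and 12, and neither Flt3 nor Dpp4 exceeded 6; the part of dendritic cells in the Itgax values was not tested.

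Over successive LPS times, members called in either direction numbered 7 from 0.5 to 1 h (49.7% of all genes), 9 from 1 to 2 h (43.3%) and 4 from 2 to 4 h (22.9%). The 9 called from 1 to 2 h were all but Itgal, with Itga4, Itgam and Icam1 rising and the other 6 falling. Itgax, which passed the filter only through stimulated libraries, is in the counts of 7 and 9. Without replicate 3 the count from 0.5 to 1 h was 4, and without replicate 1 it was 9. With the block the counts were 8, 9 and 5, with Itga4 added to the first and Itgb1 to the last.

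**Figure D2:**
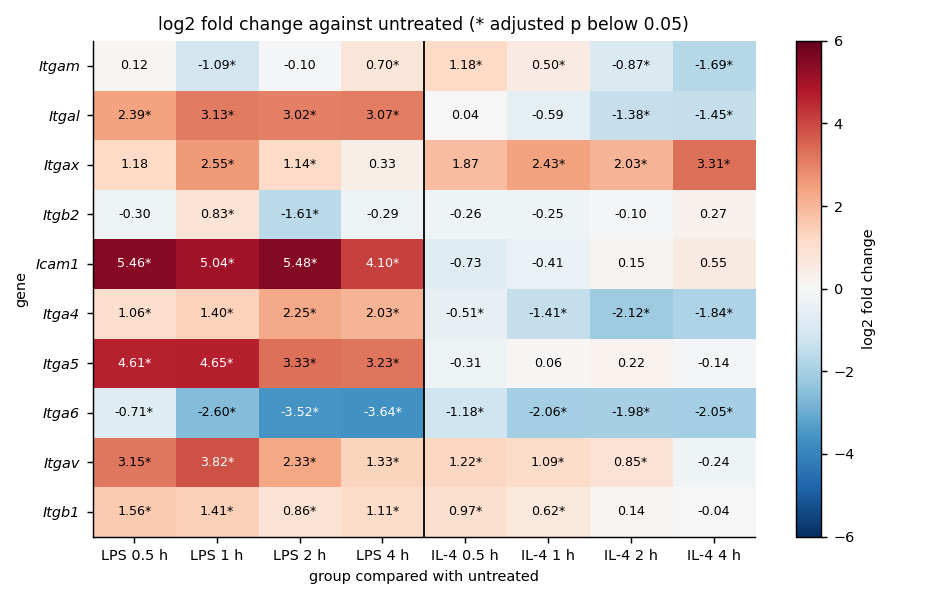
Log2 fold change of each gene (rows) in the 8 stimulated groups against untreated (columns), red for higher and blue for lower, with an asterisk where the limma adjusted p was below 0.05. LPS values reach 5.48 (Icam1, 2 h) and -3.64 (Itga6, 4 h), and IL-4 values run from -2.12 (Itga4, 2 h) to 3.31 (Itgax, 4 h).

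In the IL-4 course 8 of the 10 genes passed the F test, against 40.3% of all genes. The block on replicate numbers made this 9, against 5 with replicates 2 and 3 averaged and 4 without replicate 3. Against untreated, 0.5 h of IL-4 had 3 members called higher and 2 lower (8.15% and 8.14% of all genes). The 1 h group had 4 higher and 2 lower (11.1% and 9.83%), the 2 h group 2 higher and 4 lower (14.3% and 13.2%), and the 4 h group 1 higher and 4 lower (13.4% and 12.5%). Itgax, which passed the filter only through stimulated libraries, is among the 8 of the F test. It is also among the rises at 1, 2 and 4 h and is the one at 4 h. With the block 7, 7, 6 and 6 members were called, Itgax and Icam1 being added at 0.5 h, Itgal at 1 h and Itgb2 at 4 h. These counts moved with the replicates kept: at 0.5 h 8 members were called without replicate 1 and 3 without replicate 2 or replicate 3, at 1 h 2 without replicate 2 and 3 without replicate 3, and at 2 and 4 h 3 each without replicate 3. The members' median log2 fold change was -0.11, -0.10, 0.02 and -0.19 at these times, with the median gene between -0.02 and 0.02.

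Itga4 and Itga6 fell with IL-4. Itga4 went from 974, 1152 and 1272 untreated to 728, 783 and 871 at 0.5 h, then 421, 442 and 405 by 1 h, 213, 309 and 262 after 2 h and lastly 245, 382 and 330 after 4 h. All 12 IL-4 libraries were below all untreated ones, and the 2 h and 4 h groups overlapped. Its log2 fold change was -0.51 ± 0.16 (adjusted p = 0.0481), -1.41 (adjusted p = 2.20e-05), -2.12 (adjusted p = 3.97e-07) and -1.84 (adjusted p = 1.96e-06). The 0.5 h call was lost without untreated replicate 2 or 3 (adjusted p = 0.128 and 0.170) and without replicate 2 or 3 of both groups (adjusted p = 0.245 and 0.326), and with no filter on low values (adjusted p = 0.132). Itga6 read 443, 415 and 416 at 0.5 h, then 264, 256 and 181 by 1 h, 291, 231 and 213 after 2 h and lastly 224, 235 and 237 after 4 h, against 1080, 963 and 859 untreated. It had reached its low level by 1 h, and the groups of 1, 2 and 4 h overlapped. Its log2 fold change was -1.18 ± 0.14 (adjusted p = 5.43e-05), -2.06 (adjusted p = 2.02e-07), -1.98 and -2.05, called under every alternative run.

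Itgal fell later and with more spread. Its IL-4 values were 118, 200 and 166 at 0.5 h, then 67, 156 and 99 by 1 h, 47, 77 and 55 after 2 h and lastly 40, 83 and 51 after 4 h, beside 114, 182 and 173 untreated. The 0.5 h and 1 h groups overlapped the untreated range and the 2 h and 4 h groups did not. The log2 fold change was 0.04 ± 0.33 (adjusted p = 0.964), -0.59 (adjusted p = 0.253), -1.38 (adjusted p = 0.00688) and -1.45 (adjusted p = 0.00544). With the block the 1 h value was called too (adjusted p = 0.00241). Without replicate 3, the values at 2 and 4 h were -1.25 and -1.31 and were not called (adjusted p = 0.174 and 0.165).

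Itgam reversed over the IL-4 course. It read 1408, 1758 and 1778 at 0.5 h, then 956, 1139 and 980 by 1 h, 355, 396 and 445 after 2 h and lastly 239, 211 and 220 after 4 h, beside 679, 741 and 754 untreated. The first pair of groups lay wholly above the untreated range and the last pair wholly below it, and no IL-4 groups overlapped one another. On the log2 scale the change was 1.18 ± 0.11 (adjusted p = 5.35e-06), 0.50 (adjusted p = 0.00467), -0.87 (adjusted p = 4.61e-05) and -1.69 (adjusted p = 1.17e-07). The falls of 0.68, 1.36 and 0.83 from each time to the next were all called (adjusted p = 0.00202, 7.56e-06 and 0.000667). The rise at 1 h lost its call without replicate 2 (adjusted p = 0.136) or replicate 3 (adjusted p = 0.0552), and without replicate 2 or 3 the falls of 0.5 to 1 h and of 2 to 4 h were not called either.

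Itgav and Itgb1 rose early and returned. Itgav read 1434, 2446 and 2129 at 0.5 h, then 1338, 2283 and 1845 by 1 h, 1142, 1698 and 1796 after 2 h and lastly 654, 730 and 754 after 4 h, against 855, 885 and 777 untreated. Replicate 1 was the lowest of its group at all 4 times, and all 9 libraries up to 2 h were above the untreated ones. The log2 fold change was 1.22 ± 0.22 (adjusted p = 0.00149), 1.09 (adjusted p = 0.00264), 0.85 (adjusted p = 0.0100) and -0.24 (adjusted p = 0.496). Leaving out replicate 2 or replicate 3 ended the calls, with adjusted p = 0.0627 and 0.102 for 0.5 h, 0.0759 and 0.106 for 1 h, and 0.0933 and 0.234 for 2 h, while the fold changes stayed between 0.68 and 1.11. Itgb1 read 678, 845 and 902, then 562, 670 and 663, then 472, 421 and 460, then 428, 385 and 381, beside 413, 415 and 401 untreated. Its log2 fold change was 0.97 ± 0.10 (adjusted p = 1.87e-05), 0.62 (adjusted p = 0.000621, and 0.0543 without replicate 2), 0.14 (adjusted p = 0.379) and -0.04 (adjusted p = 0.811).

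The remaining members changed little or at low levels. Itga5 stayed between 146 and 267 in all IL-4 libraries, beside 180 to 239 untreated, and no time was called (log2 fold change -0.31 to 0.22, F test adjusted p = 0.115). Without replicate 1 its 0.5 h value was called (-0.47, adjusted p = 0.0431), as was its F test with equal totals (adjusted p = 0.0450). Itgb2 read 286, 361 and 377 at 0.5 h, then 265, 437 and 347 by 1 h, 335, 397 and 411 after 2 h and lastly 373, 537 and 588 after 4 h, every group overlapping untreated. Its F test gave adjusted p = 0.179, and 0.00183 with the block, where the 4 h value of 0.27 was called (adjusted p = 0.371 without the block and 0.0435 with it). Icam1, with 56, 22 and 36 at 0.5 h, then 59, 42 and 36 by 1 h, 90, 57 and 57 after 2 h and lastly 83, 89 and 91 after 4 h, passed the F test (adjusted p = 0.0157) but not at any single time. Its log2 fold change ran from -0.73 ± 0.28 at 0.5 h (adjusted p = 0.100, and 0.0329 with the block) to 0.55 at 4 h (adjusted p = 0.184), and the F test was not called without replicate 2 or 3 (adjusted p = 0.220 and 0.260). Without replicate 1 Icam1 was called lower at 0.5 and 1 h (-1.10 and -0.65, adjusted p = 0.00405 and 0.0426). Itgax read 22, 10 and 6, then 20, 18 and 13, then 28, 5 and 13, then 59, 19 and 28, against 5, 2 and 1 untreated, with replicate 1 highest at every time.

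For Itgax the log2 fold change with IL-4 was 1.87 ± 0.61 at 0.5 h (adjusted p = 0.0513, and 0.00160 with the block), 2.43 at 1 h (adjusted p = 0.0106), 2.03 at 2 h (adjusted p = 0.0233) and 3.31 at 4 h (adjusted p = 0.00111). The 2 h group touched the untreated range and the other 3 did not. Since Itgax entered the test only through stimulated libraries, where it was high, these calls are given as a description, and the F test lost its call without replicate 2 or 3 (adjusted p = 0.0790 and 0.177). Calls were lost at 1 h without untreated replicate 3 (adjusted p = 0.0526), at 2 h without untreated replicate 2 or 3 (adjusted p = 0.0676 and 0.0958), and at 4 h without replicate 3 (adjusted p = 0.0550), and at 1 and 2 h also without replicate 2 or 3 of both groups (adjusted p from 0.0656 to 0.260). The summed dendritic cell markers were 16 to 22 at 4 h of IL-4.

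Successive IL-4 times gave 3 called members from 0.5 to 1 h (7.82% of all genes), 3 from 1 to 2 h (9.4%) and 2 from 2 to 4 h (5.48%), all of them falls. Itgam was in all 3 counts, Itga4 in the first pair, Itga6 in the earliest, Itgb1 in the middle one (-0.48, adjusted p = 0.00982) and Itgav in the last (-1.09, adjusted p = 0.0110). With the block the counts were 5, 4 and 4. It added falls of Itgal from 0.5 to 1 h and from 1 to 2 h (adjusted p = 0.00395 and 0.000601) and of Itgb1 from 0.5 to 1 h (adjusted p = 0.0294), and from 2 to 4 h rises of Itgax and Itgb2 (adjusted p = 0.0331 and 0.0226). Without replicate 2 or 3, between 0 and 1 member was called at each step.

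Set directly against IL-4 at the same time, 0.5 h of LPS gave higher values of 7 members and a lower value of 1 (18% and 35.8% of all genes). The 1 h pair had 7 higher and 2 lower (24% and 40.5%), the 2 h pair 7 higher and 2 lower (26.4% and 42.3%), and the 4 h pair 7 higher and 3 lower (26.1% and 41.9%). Itgax, which passed the filter only through stimulated libraries, is 1 of the 3 lower at 4 h. Icam1, Itga5, Itgal, Itga4, Itgav and Itgb1 were higher with LPS at all 4 times. The gap of Icam1 narrowed from 6.19 ± 0.22 at 0.5 h to 3.56 at 4 h (adjusted p = 2.08e-16 and 8.21e-13), and that of Itga5 from 4.91 ± 0.15 to 3.36. For Itgal and Itga4 it widened, from 2.35 ± 0.29 and 1.57 ± 0.16 at 0.5 h to 4.52 and 3.87 at 4 h (adjusted p = 1.56e-12 and 5.58e-16). Whether a gap changed with time was not tested. Itgav differed by 1.93 ± 0.21, 2.73, 1.48 and 1.57, and Itgb1 by 0.60 ± 0.10, 0.80, 0.72 and 1.15. With equal totals Itgb1 was not called at 0.5 h (0.21, adjusted p = 0.0728) or at 2 h (0.09, adjusted p = 0.407).

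Itgam changed sides in this comparison, lower with LPS at 0.5 and 1 h (-1.05 ± 0.14 and -1.59, adjusted p = 1.22e-06 and 1.08e-09) and higher at 2 and 4 h (0.77 and 2.40, adjusted p = 5.02e-05 and 3.74e-13). At 4 h the 3 LPS libraries read 1067 to 1253 and the 3 IL-4 libraries 211 to 239. Its 2 h difference was 0.13 with equal totals and not called (adjusted p = 0.402). Itgb2 was higher with LPS at 1 h (1.07 ± 0.19, adjusted p = 3.31e-05) and lower at 2 h (-1.51, adjusted p = 2.43e-07) and at 4 h (-0.56, adjusted p = 0.0135), and the last was not called without replicate 2 or 3 (adjusted p = 0.0851 and 0.150) or with median-of-ratios scaling (-0.27, adjusted p = 0.176). Itga6 was above its IL-4 level at 0.5 h (0.47 ± 0.17, adjusted p = 0.0201) and below it at 1, 2 and 4 h (-0.54, -1.53 and -1.59, adjusted p = 0.00715, 2.17e-08 and 1.17e-08). The 0.5 h difference was 0.09 with equal totals (adjusted p = 0.675) and not called without replicate 2 or 3 (adjusted p = 0.100 and 0.181), and the 1 h difference was not called with median-of-ratios scaling (-0.26, adjusted p = 0.170) or without replicate 2 (adjusted p = 0.0625). Itgax was lower with LPS at 4 h (-2.97 ± 0.55, adjusted p = 4.80e-05), and at 2 h only with the block (-0.89, adjusted p = 0.157 and 0.0339) or with equal totals.

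**Figure D3:**
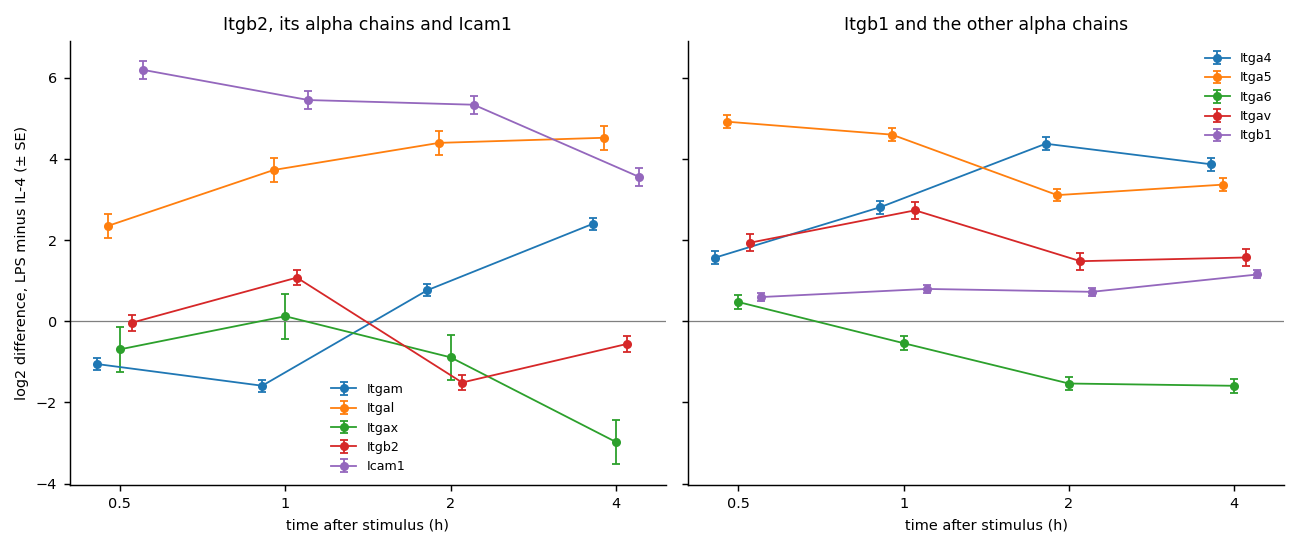
Log2 difference between LPS and IL-4 at each time (points, first-named minus second, with SE bars from the limma fit of all 27 libraries, shifted sideways for legibility and joined by lines per gene, on a log time axis). Icam1 falls from 6.19 to 3.56, Itgal and Itga4 climb to 4.52 and 3.87 at 4 h, and Itgam crosses zero between 1 and 2 h.

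Because several alpha chains share a beta chain, the RNA of each alpha chain is also given as a share within a library, per kb of gene span. The share is taken over the alpha chains described here and not over every possible partner, and library scaling cannot alter it. Summed over Itgam, Itgal and Itgax, the 3 Itgb2 partners described, untreated cells held 76.0% ± 3.01 Itgam, 23.3% ± 3.63 Itgal and 0.778% ± 0.678 Itgax (SD, n = 3). At 1 h of LPS the order was inverted, with 14.6% ± 1.73 Itgam and 83.3% ± 1.91 Itgal, and by 4 h Itgam was back to 38.8% ± 3.60. By span, no LPS library had an Itgam share above 46.2%, and no untreated library one below 73.5%. IL-4 gave 86.1% ± 1.32 Itgam at 0.5 h, and at 4 h 56.0% ± 3.58 Itgam, 21.3% ± 9.40 Itgal and 22.6% ± 10.9 Itgax. That Itgax share came from low counts of 59, 19 and 28, and was 34.5%, 13.2% and 20.2% in replicates 1, 2 and 3. With exonic length in place of span, Itgam took 83.6%, 21.7% and 71.3% in untreated cells, at 1 h of LPS and at 4 h of IL-4. At 0.5 h of LPS Itgam (51.8% ± 6.37) and Itgal (47.6% ± 6.33) then lay within their spread. The same held at 4 h of LPS (50.4% ± 3.79 and 49.4% ± 3.77), while by span Itgal was ahead at both times. At 4 h of IL-4 Itgal took 16.8% ± 6.96 and Itgax 11.9% ± 6.24 by exonic length.

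Among Itga4, Itga5, Itga6 and Itgav, untreated shares per kb of span were 30.6% ± 3.29, 19.4% ± 2.33, 28.6% ± 4.04 and 21.4% ± 1.72, and per kb of exon 26.1%, 10.5%, 36.4% and 26.9%. Under LPS Itga5 had the largest share by span at all 4 times, 63.3% ± 4.88 at 0.5 h and 47.3% to 52.0% at 4 h. By exonic length this order did not hold: Itga5 (44.7% ± 5.26) and Itgav (41.9% ± 4.16) lay within their spread at 0.5 h, Itgav was above Itga5 at 1 h (52.9% against 36.7%) and at 2 h (36.9% against 28.6%), and Itga4 took 38.5% ± 3.68 against 35.7% ± 1.87 for Itga5 at 4 h. Which chain led under LPS therefore depended on the length used, while Itga5 was above its untreated share by either length. Itga6 had between 0.411% and 0.766% by span from 1 h on, and a mean of 0.836% to 1.09% by exonic length. Itga4 fell to 8.60% ± 1.38 at 0.5 h although its level rose, and was 34.4% ± 3.45 at 4 h. With IL-4 Itgav had the largest share up to 2 h by either length, 50.1% ± 7.08 at 0.5 h and 54.2% ± 6.83 by 1 h by span. After 4 h, Itgav (35.6% ± 3.29) and Itga5 (34.3% ± 3.70) lay within their spread by span, and by exonic length Itgav stood well above, at 47.2% ± 2.84 against 19.7% ± 2.81. These are shares of RNA, and the surface receptors were not measured.

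**Figure D4:**
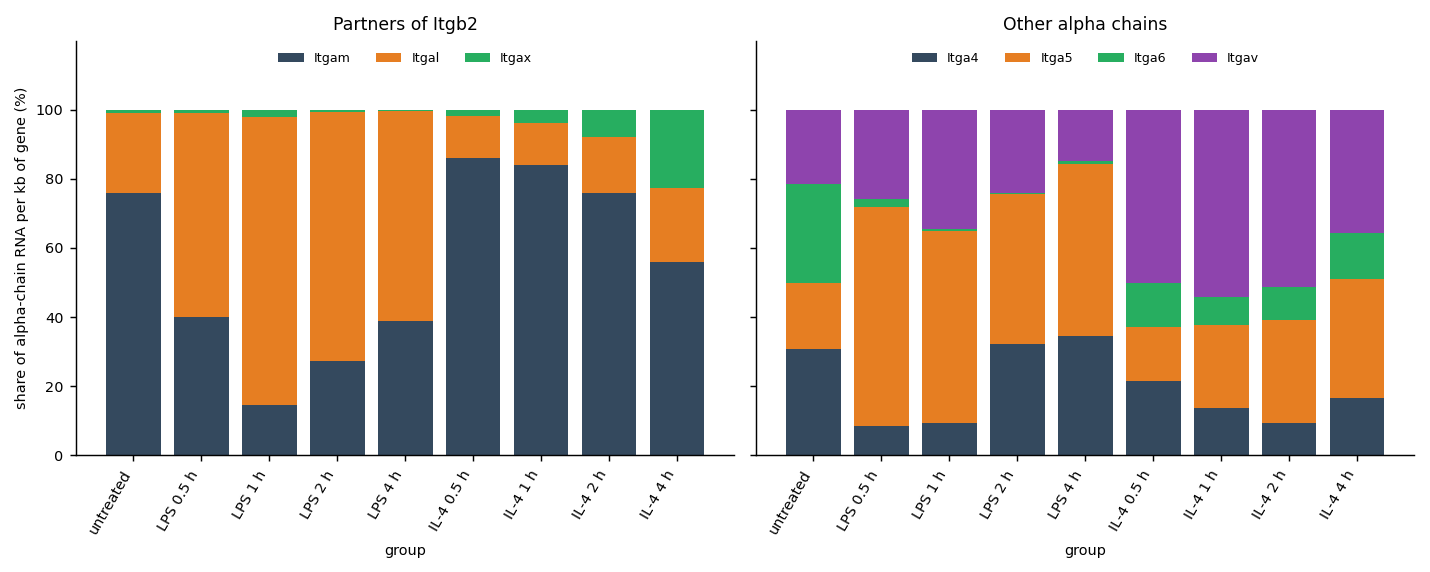
Mean share of alpha-chain RNA per kb of gene span (stacked bars, 3 libraries per group) among the 3 Itgb2 partners described here and among the other 4 alpha chains. Itgal takes 83.3% of these 3 at 1 h of LPS against 23.3% in untreated cells, and Itga5 takes 63.3% of the other chains at 0.5 h of LPS against 19.4% (44.7% and 10.5% by exonic length, not drawn).

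The other integrin subunits in the table numbered 17, of which 11 were tested. In order of time under LPS, 1, 2, 2 and 1 of these were called higher and 3, 4, 6 and 3 lower, beside 19.6% to 26.9% of all genes higher and 34.4% to 39% lower, and the list's median log2 fold change was -0.05, -0.37, -0.99 and -0.76 beside -0.30 to -0.24 for all genes. With IL-4 the list had 2, 3, 2 and 3 higher and 1, 3, 2 and 3 lower, beside 8.15% to 14.3% and 8.14% to 13.2% of all genes, with a median of -0.30 to 0.07. Itgb8, a partner of Itgav in the activation of latent TGF-beta, read 1, 1 and 0 untreated and 469, 567 and 651 at 4 h of LPS. Its 4 h mean was 187 times a floor of 3 that no untreated library exceeded, a lower bound for the rise. It shares its locus with Gm52023. Since it passed the filter only through stimulated libraries, its call is given as a description. It is the 1 gene of this list called higher at 4 h of LPS. Itgb5, another Itgav partner, fell under both stimuli, from 981, 1017 and 941 untreated to 195, 205 and 186 at 1 h of LPS (-2.32 ± 0.10, adjusted p = 2.65e-11) and to 205, 230 and 180 at 1 h of IL-4 (-2.26 ± 0.10, adjusted p = 4.95e-09). Itgb3, the vitronectin receptor beta chain, rose with IL-4 from 15, 13 and 9 to 103, 110 and 102 at 4 h (3.02 ± 0.16, adjusted p = 2.57e-08). Itga1, a collagen receptor chain whose locus holds Pelo, rose from 8, 13 and 18 to 59, 122 and 184 at 1 h of IL-4 (3.05 ± 0.54, adjusted p = 0.000936), and Itga9, which overlaps 4 annotated genes, fell from 581, 299 and 297 to 220, 148 and 142 at 4 h (-1.16 ± 0.33, adjusted p = 0.0199).

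Of 28 genes for integrin activators and adaptors, which link the receptor tails to actin and signalling, 27 were tested. In order of time under LPS, 9, 12, 9 and 8 were called higher and 1, 5, 6 and 5 lower, beside 19.6% to 26.9% and 34.4% to 39% of all genes, and the list's median log2 fold change was 0.45, 0.35, 0.33 and -0.06. Lims1, which encodes the adaptor PINCH1, rose from 827, 861 and 849 to 4167, 3615 and 3596 at 1 h (2.16 ± 0.12, adjusted p = 5.05e-10), and Zyx, the focal adhesion protein zyxin, from 55, 62 and 51 to 211, 313 and 318 at 4 h (2.28 ± 0.23, adjusted p = 3.34e-07). Parvg, the gamma parvin of leukocytes, fell from 63, 113 and 110 to 6, 8 and 3 at 4 h of LPS (-3.88 ± 0.33, adjusted p = 5.86e-08), and Rasgrp4, a Ras exchange factor, from 66, 44 and 64 to 9, 5 and 4 (-3.12 ± 0.34, adjusted p = 8.22e-07). With IL-4, 7, 6, 5 and 2 were called higher and 4, 5, 6 and 6 lower, beside 8.15% to 14.3% and 8.14% to 13.2% of all genes, with a median of -0.05 to 0.22. At 0.5 h Apbb1ip, which encodes the Rap1 effector RIAM, rose from 1425, 1296 and 1333 to 3428, 3742 and 3290 (1.37 ± 0.07, adjusted p = 4.35e-08), Zyx to 136, 158 and 154 (1.40 ± 0.15, adjusted p = 1.62e-05), and Pxn, paxillin, fell from 370, 356 and 353 to 151, 128 and 134 (-1.38 ± 0.10, adjusted p = 4.86e-07). Parvg was at 29, 41 and 35 at 2 h of IL-4 (-1.39 ± 0.24, adjusted p = 0.000618).

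Integrin ligands other than Icam1 numbered 24, with 19 tested. In order of time under LPS, 8, 10, 9 and 7 were called higher and at most 2 lower, beside 19.6% to 26.9% and 34.4% to 39% of all genes, and the median log2 fold change was 0.53, 1.40, 1.00 and 0.67. With IL-4, 2 or 3 were called higher and at most 1 lower at each time, beside 8.15% to 14.3% and 8.14% to 13.2% of all genes. Vcam1, the cell surface ligand of VLA-4, read 1, 0 and 1 untreated and 229, 165 and 152 at 1 h of LPS. Its 1 h mean was 60.7 times a floor of 3 that no untreated library exceeded, a lower bound for the rise. Vcam1 too passed the filter only through stimulated libraries, so its call is given as a description. It is among the 10 ligands called higher at 1 h of LPS. Which other listed genes entered the test in this way is not given here. Tnc, the matrix glycoprotein tenascin-C, rose from 24, 6 and 9 to 141, 158 and 175 at 2 h (3.72 ± 0.44, adjusted p = 2.24e-06). With IL-4 the named changes were smaller, for Cd47 from 683, 600 and 695 to 1120, 902 and 1054 at 0.5 h (0.63 ± 0.09, adjusted p = 0.000196) and for Lamc1, a laminin chain, from 197, 195 and 200 to 285, 253 and 249 at 1 h (0.41 ± 0.10, adjusted p = 0.00796). No ligand met the rule for a named fall under either stimulus. Of the genes named in these lists, Zyx, Lims1, Rasgrp4, Apbb1ip, Pxn, Tnc and Lamc1 each overlap 1 other annotated gene, so reads there could be shared.

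For the 4 members with the largest changes, the genes with the most similar course were sought among 6818 genes with a mean of at least 50, by Pearson's r of the group means of log2(value + 1) over the 9 groups, which share the same libraries. For Icam1 they were Crk (r = 0.993), an SH2 and SH3 domain adaptor, H2-D1 (r = 0.990), an MHC class I heavy chain with near-identical family members that can share reads, and Psd (r = 0.990). Itga5 lay nearest to Gm52502 (r = 0.993), the store-operated calcium channel gene Orai2 (r = 0.992) and Gm29083 (r = 0.992). Itgav was matched by Gm36470 (r = 0.975), the nucleotide receptor gene P2ry2 (r = 0.975) and Ube2d2a (r = 0.961), and Itga6 by Lhfpl2 (r = 0.972), Tmcc1 (r = 0.965) and Gm46045 (r = 0.964). Among the members themselves, r of the group means was 0.973 for Itgal and Itga4, 0.972 for Itga5 and Icam1 and 0.892 for Itgav and Itgb1, while Itgb2 had no value above 0.403 with any other member.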

How the data were processed

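Chromatin-associated RNA libraries (Smart-seq2 chemistry, random primers, single-end reads) of 27 BMDM samples were aligned by the authors to mm10 with TopHat2 2.1.1, filtered with bedtools 2.29.2, and counted per gene on the GRCm38.p6 annotation. DESeq2 and R 3.6.2 are also named in the submitters' processing notes. The deposited values are read counts that the authors scaled on invariant genes and rounded, so they were treated as a score, with the sequencing depth unknown. No value column was left unused (0).

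Genes with at least 10 in at least 3 samples were tested (13901 genes) in R 4.3.3 by limma 3.58.1, on log2(value + 1) and with a variance trend over the mean level. P-values were adjusted by Benjamini-Hochberg over all of them, and an adjusted p below 0.05 was a call. This scale understates the changes of low genes. The fit of a course held 15 samples, 3 of them untreated, and LPS was set against IL-4 in a fit of all 27. Summaries used Python 3.11.15. The fits were also run on simulated counts with the same dispersion for all genes and no replicate effect. Replicate 1 stood apart in the real data, so that run does not bear on the replicate spread seen here. Whether introns were counted is not given in the sources used here, so levels are given per kb of span and of exons.

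The members and gene lists were chosen with earlier results of these data known. Beside the members, named genes are the 2 largest rises and 2 largest falls of each list and stimulus that passed the F test with a mean of at least 50 in the higher group, and 3 similar genes for 4 members. Same-numbered samples deviated together: over the 54 pairs of compared groups r was 0.0897 to 0.713. Every pair was over 0.1 except in LPS 4 h against untreated. The reported values, p-values and counts come from the fit without a block and so do not use this pairing. Values with a block on replicate number are given where it changed a call of a member, and not for the further lists. Tried as alternatives were a pseudocount of 8, no filter, a mean of at least 50, median-of-ratios scaling, equal totals, the replicate block, leaving out replicates and averaging replicates 2 and 3.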

Additional observations from a re-analysis of the deposited data

Results flagged for a closer look

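Of the 10 genes, 2 were called above untreated at 1 time and below it at another time of the same course, with the difference between the times itself called (limma, Benjamini-Hochberg adjustment). Itgam under LPS was at -1.09 at 1 h and 0.70 at 4 h, a difference of 1.79 ± 0.16 (SE, adjusted p = 1.15e-07). Itgb2 under LPS was at 0.83 at 1 h and -1.61 at 2 h, a difference of -2.44 ± 0.17 (adjusted p = 1.76e-08). With IL-4, Itgam stood at 1.18 and 0.50 at 0.5 and 1 h and at -0.87 and -1.69 at 2 and 4 h. Its differences were -2.04 from 0.5 to 2 h, -2.87 from 0.5 to 4 h, -1.36 from 1 to 2 h and -2.19 from 1 to 4 h, each ± 0.11 (adjusted p = 6.70e-08, 2.52e-09, 7.56e-06 and 4.18e-08). The groups at the earlier and later times did not overlap in any of these pairs. Under LPS the rises lost their calls with equal totals, where Itgam at 4 h was 0.09 and Itgb2 at 1 h 0.25 (adjusted p = 0.601 and 0.220). Both stayed called under every other alternative run, median-of-ratios scaling among them. The IL-4 rise of Itgam at 1 h was not called without replicate 2 or 3 (adjusted p = 0.136 and 0.0552). What lies behind the reversals was not tested. With 3 samples a group, no test for a single deviating sample was made.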

How the results depend on the processing

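Over all alternatives the number of members called against untreated under LPS, in the LPS course and between LPS and IL-4 stayed within 1.5 times its reported value, with ranges on leaving out replicates of 9 to 10 (course), 7 to 8, 10 to 10, 8 to 9 and 8 to 9 (0.5 to 4 h), and 7 to 8, 8 to 9, 9 to 9 and 9 to 10 (LPS against IL-4). For the LPS steps the ranges were 4 to 9, 7 to 9 and 3 to 6. IL-4 counts depended on which replicates were kept: 4 to 9 in the course, 3 to 8, 2 to 7, 3 to 6 and 3 to 6 against untreated in order of time, and 0 to 4, 1 to 4 and 0 to 3 for the steps. With replicates 2 and 3 averaged they were 5 in the course, 3, 3 and 3 at 0.5, 1 and 2 h, and 0, 1 and 0 for the steps, with fewer samples in the fit. With no filter on low values the IL-4 step from 2 to 4 h kept 1. The replicate block, which follows the pairing, gave 5 and 4 members for the IL-4 steps from 0.5 to 1 h and from 2 to 4 h. It reversed no sign and ended no call of a member.

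Signs turned mostly in values that passed no test; the cause was not tested. With equal totals Itgam was -0.39 at LPS 0.5 h, Itgax -0.10 at LPS 4 h, Itga5 -0.027 for the LPS step from 0.5 to 1 h, Itgb2 -0.39 in the IL-4 course, Itgal -0.085 at IL-4 0.5 h, Itga5 -0.047 at IL-4 1 h and Itgax -0.33 between LPS and IL-4 at 1 h. Of these, Itgam and Itgb2 were called. With median-of-ratios scaling the largest LPS change of Itgam was 0.94 (4 h) in place of the 1 h fall, Itgam was 0.14 at LPS 2 h, Itgb2 -0.27 in the IL-4 course, -0.00067 for the IL-4 step from 0.5 to 1 h and 0.21 between LPS and IL-4 at 0.5 h. With replicates 2 and 3 averaged Itga5 was -0.0045 for that LPS step and 0.31 in the IL-4 course, Itgb2 -0.28 in the IL-4 course and -0.011 for the IL-4 step from 0.5 to 1 h, and Icam1 0.55 in the IL-4 course.

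Leaving out 1 replicate number or untreated library turned signs in the following ranges. Under LPS Itgam ran from -0.048 to 0.26 at 0.5 h, and its 2 h value lay between -0.21 and 0.021, Itgax from -0.028 to 0.76 at 4 h, Itga5 from -0.090 to 0.13 for the step from 0.5 to 1 h, and Itgal from -0.20 to 0.28 and Itga6 from -0.28 to 0.065 for the step from 2 to 4 h. In the IL-4 course Itga5 ran from -0.47 to 0.34, Itgb2 from -0.41 to 0.37 and Icam1 from -1.10 to 0.56. Against untreated with IL-4, Itgal ran from -0.17 to 0.17 at 0.5 h, Itga5 from -0.054 to 0.25 at 1 h and Icam1 from -0.11 to 0.29 at 2 h. For the IL-4 steps Itgb2 ran from -0.11 to 0.083 (0.5 to 1 h), Itgax from -0.83 to 0.23 and Itga6 from -0.0038 to 0.19 (1 to 2 h), and Itga6 from -0.18 to 0.089 (2 to 4 h). Between LPS and IL-4 Itgb2 ran from -0.12 to 0.040 at 0.5 h and Itgax from -0.072 to 0.26 at 1 h. None of the values with the turned sign passed the test.

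Of all genes called, 36.3% to 40.8% were higher in the LPS groups against untreated, 18.3% to 23.7% with equal totals and 48.1% to 49.3% with median-of-ratios scaling. For LPS against IL-4 the shares were 33.4% to 38.4%, 19.1% to 22.6% and 47.1% to 48.4%, and at 0.5 and 1 h of IL-4 equal totals moved them from 50.02% and 53.1% to 31.5% and 39.5%. Of the members called at 0.5 and 2 h of LPS, 85.7% and 77.8% were higher as reported, 66.7% and 62.5% with equal totals, and 87.5% and 77.8% with median-of-ratios scaling. Itgax, at 59 or less throughout, is limited by its low values.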
